A study of Mus musculus with 6 samples.

Results

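The cytosolic ribosomal protein genes were the rows of the counts table whose symbol names a protein of the large (Rpl) or small (Rps) subunit of the cytosolic ribosome, the acidic stalk (Rplp0, Rplp1, Rplp2) or Rpsa, and 88 of the 29199 genes in the table were such members. They were measured in regulatory T cells (Treg), CD4 T cells that express the transcription factor Foxp3 and restrain other T cells, sorted from the spleen of mice 3 weeks after a bone marrow graft. The hosts were irradiated C57BL/6 mice (B6), and all of them received T and NK cell-depleted marrow of B6 and B6D2F1 donors, WT Treg expanded in culture from B6 Foxp3-Thy1.1 mice, and naive conventional CD4 T cells (Tconv). In 3 libraries, named Treg with WT Tconv, the co-transferred Tconv were WT. In the 3 others, named Treg with HP1a KO Tconv, they came from mice in which Cbx5, which encodes the heterochromatin protein HP1a, had been deleted in all tissues by CMV-cre.

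The Treg themselves were WT in every library, so the comparison asks whether Treg transcripts differ with the genotype of the Tconv that share the host, and the libraries hold no measurement of the deletion. The labels do not say whether each library came from a separate host, and the p-values given measure the spread between these libraries. The libraries held between 87421755 and 119078882 estimated counts. No 2 replicates of a group were alike within counting error (chi-square over degrees of freedom, 21.3 or more for each pair). Foxp3 lay between 158 and 254 CPM (counts scaled to a common library total), and all 8 Treg markers were present in every library. Foxp3, Il2ra, Cd3e and Cd4 were lowest in Treg with HP1a KO Tconv replicate 2, at 158, 124, 151 and 707 CPM. In that library Cd3g was the highest of all, and Ctla4, Ikzf2 and Trac were neither highest nor lowest. Treg with WT Tconv replicate 3 stood apart in red cell transcripts (a sum of 6155 CPM over 7 markers, against 393 to 736 in the others) and in neutrophil transcripts (1824 CPM over 8 markers, against 41.4 to 226). Treg with HP1a KO Tconv replicate 2 stood apart in mitochondrially encoded transcripts, at 0.972% of its counts against 2.52% to 2.88% in the others. It was also lowest in the nuclear RNA Malat1, which did not overlap between groups. Malat1 took 1.36%, 1.49% and 1.27% of counts with WT Tconv and 1.25%, 0.679% and 1.06% with HP1a KO Tconv. Of the other marker lists, only that of plasma cells did not overlap between groups. Its sums over 5 genes were 252, 266 and 278 CPM with WT Tconv and 249, 237 and 215 CPM with HP1a KO Tconv. Xbp1 (127 to 171 CPM) and Prdm1 (80.2 to 102 CPM) made up nearly all of these sums. Jchain had 0.945, 0.345 and 10.4 CPM with WT Tconv and 2.88, 0.473 and 0.812 CPM with HP1a KO Tconv, which overlapped. Sdc1 and Mzb1 had at most 0.613 and 0.899 CPM. The part of this list in the results was not tested. Without replicate 2 of the HP1a KO group many fold changes of the members were smaller, and the values without it are given beside those it moves by over 1.5 times.

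Each ribosome carries 1 copy of almost every ribosomal protein, assembled on ribosomal RNA in the nucleolus. The genes that encode these proteins are spread over many chromosomes. The 88 members here, which include 5 processed pseudogenes, lay on 19 chromosomes, with 15 on chromosome 7 and 4 on the X. Ribosomal protein mRNAs are among the most abundant of a dividing cell and carry a pyrimidine tract at the 5′ end, the 5′ TOP motif. Through it the kinase mTOR and the protein LARP1 set their translation and storage. T cells raise ribosome production when they are activated. Many ribosomal protein genes also left processed pseudogenes in the mouse genome, copies made from spliced mRNA, and 80 of the 88 members had at least 1 gene in the annotation that matched 95% or more of the coding sequence over at least 80% of its length.

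The members fell into 43 large-subunit genes, 31 small-subunit genes, 3 stalk genes and 11 paralogs or copies. Of the last, 6 were protein-coding paralogs (Rps27l, Rpl22l1, Rpl39l, Rpl3l, Rpl7l1 and Rps4l) and 5 were annotated as processed pseudogenes despite their names (Rpl32l, Rpl6l, Rps12l1, Rps3a2 and Rps3a3). The filter on low counts kept 87 members. The one left out, Rpl3l, the muscle form of Rpl3, had between 1 and 11 counts in each of the 6 libraries. Rpl10l, the germ cell form of Rpl10, was not analysed here.

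The sequence near the start of transcription was read for the 63 members that RefSeq's promoter table (GRCm38.p6) holds. The letters CTTTCC, a pyrimidine run of the kind found at 5′ TOP starts, were searched within 50 bases either side of each annotated start, on both strands. They were found on the gene's own strand in 19 of the 63 members (30.2%) and in 5.43% of the 27025 genes in the table. On the other strand they were found in 2 members (3.17%) and 5.12% of all genes. With the annotated start as base 1, the match began at base 3 in Rpl28, 1 in Rpl38, 2 in Rps27 and 10 in Rpl13a. It began upstream of the start in Rpl22 (-32), Rpl39l (-6) and Rps19 (-41, or base 44 from another annotated start). The windows of the members named in this text that held the letters are printed 5′ to 3′ on the gene's strand. The match is in capitals, to show the shared pyrimidine run.
Rpl28 (chr7:4792955-4792984, plus strand): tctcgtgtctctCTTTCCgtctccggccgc
Rpl38 (chr11:114668568-114668597, plus strand): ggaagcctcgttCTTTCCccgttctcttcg
Rps27 (chr3:90213630-90213659, minus strand): ccgctttcgctcCTTTCCggcggtgacgac
Rpl13a (chr7:45128719-45128748, minus strand): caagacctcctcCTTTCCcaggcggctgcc
Rpl22 (chr4:152325682-152325711, plus strand): tctgactcctccCTTTCCcgacagccgact
Rps19 (chr7:24884626-24884655, plus strand): cgtcgttccCTTTCCcctggctggcagcgc
Rpl39l (chr16:10170210-10170239, plus strand): tagctcccaggcCTTTCCggatttccggtg
Among the subunit and stalk genes, the 18 with a match had a median log2 fold change (HP1a KO over WT Tconv, TMM-normalised) of 0.13 and the 39 without one had 0.11. These were 0.08 and 0.07 without replicate 2 of the HP1a KO group.

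The ribosomal protein genes together took a larger share of the counts in Treg with HP1a KO Tconv. The share of all counts assigned to the 88 members was 5.95%, 5.82% and 5.96% in Treg with WT Tconv and 6.16%, 7.19% and 6.50% in Treg with HP1a KO Tconv. The groups did not overlap, and replicate 2 of the HP1a KO group was the highest of all. The mean was 5.91% ± 0.0799 (SD, n = 3) with WT Tconv and 6.62% ± 0.526 (SD, n = 3) with HP1a KO Tconv. The difference of 7054 CPM between these means was 4185 CPM without replicate 2 of the HP1a KO group. No test was made on a sum over the members. In bulk libraries a larger share of the counts cannot be told apart from a smaller amount of other RNA. The counts of mitochondrially encoded RNA and Malat1 given above were lowest in the library with the highest ribosomal protein share. Malat1 also took a smaller share in every HP1a KO library than in every WT library. Its difference between group means was -3764 CPM, and -2173 CPM without replicate 2 of the HP1a KO group. The part of these RNAs in the ribosomal protein share was not tested.

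**Figure D1:**
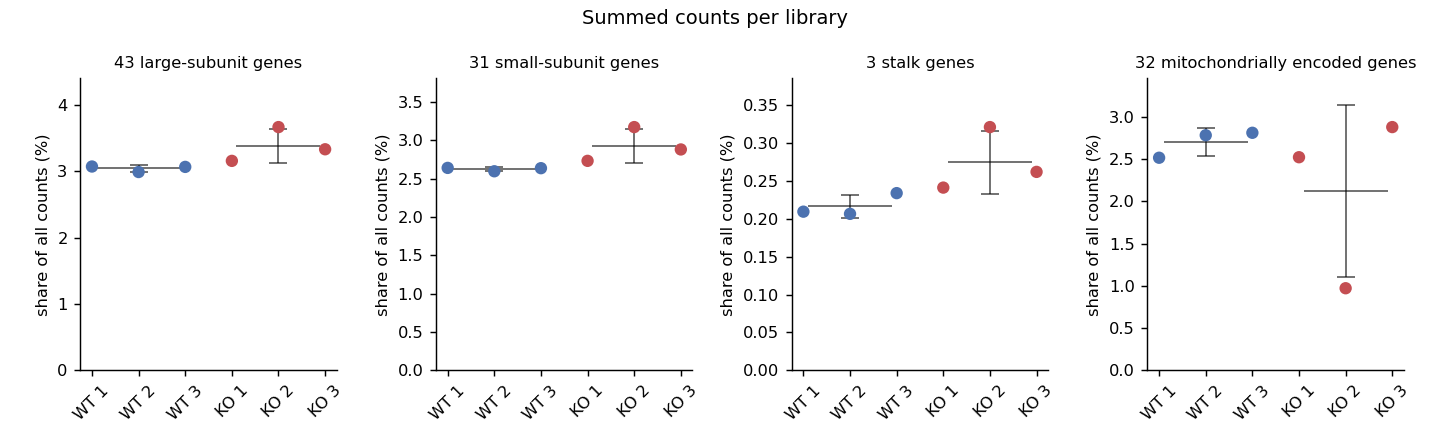
Share of all counts in percent (vertical axes, from 0) taken by the large-subunit, small-subunit and stalk genes and by the mitochondrially encoded genes, for the 3 libraries of Treg with WT Tconv (WT 1 to 3, blue) and the 3 of Treg with HP1a KO Tconv (KO 1 to 3, red), with group means and SD in black. KO 2 is highest in the first 3 panels and, at 0.972%, lowest in the fourth.

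The share was higher for both subunits and for the stalk. The large-subunit genes summed to 3.07%, 2.99% and 3.07% of counts with WT Tconv and to 3.16%, 3.67% and 3.33% with HP1a KO Tconv. The small-subunit genes summed to 2.64%, 2.60% and 2.64% with WT Tconv and to 2.73%, 3.17% and 2.88% with HP1a KO Tconv. In both subunits every HP1a KO library lay above every WT library. The ratio of large-subunit to small-subunit counts was between 1.15 and 1.16 in all 6 libraries. The stalk genes, whose proteins form the lateral arm of the large subunit that recruits elongation factors, summed to 0.209%, 0.207% and 0.234% with WT Tconv and to 0.241%, 0.321% and 0.262% with HP1a KO Tconv.

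Gene by gene, the changes were small and none passed the multiple-testing threshold. With edgeR's quasi-likelihood test, 0 of the 87 tested members had a Benjamini-Hochberg adjusted p under 0.05 over all 18321 genes tested, where 0 genes in all did (0%). The smallest adjusted p of a member was 0.209. At an unadjusted p under 0.05, 17 members (19.5%) were higher with HP1a KO Tconv, against 6.98% of all genes tested, and 2 members (2.3%) were lower, against 7.52% of all genes. DESeq2, the tool the study used, called 1 of 83 members (1.2%) at an adjusted p under 0.05, Rplp1. It called 526 genes in all (4.35% of the 12097 genes to which it gave an adjusted p). The study also required an absolute log2 fold change above 1, which Rplp1, at 0.49 by DESeq2, did not reach. It reported no detectable effect of the HP1a KO Tconv on Treg programming. The median log2 fold change of the members was 0.13 against -0.0085 over all genes tested, and 76 members were above 0 (87.4%), against 48.5% of all genes. Of the members, 28 had all 3 HP1a KO libraries above all 3 WT libraries (32.2%, against 11.5% of all genes tested), and 3 had them below (3.45%, against 11.6%). Scaling by library totals only gave 26 higher and 2 lower members, and moved all genes as well, to 9.53% higher and 5.64% lower at an unadjusted p under 0.05.

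Much of the size of this shift sat in 1 library. Treg with HP1a KO Tconv replicate 2 had the highest value of the 6 libraries for 64 of the 77 subunit and stalk genes, replicate 3 of the same group for 12 and Treg with WT Tconv replicate 1 for 1. Without replicate 2 of the HP1a KO group, the members' median log2 fold change was 0.07, and 67 of 87 were above 0 (77%, against 49.4% of all genes). In that fit 11 members were higher at an unadjusted p under 0.05 (12.6%, against 7.51% of all genes) and 2 were lower (2.3%, against 8.92%). The 2 remaining HP1a KO libraries lay above all 3 WT libraries for 34 members (39.1%, against 18.9% of all genes). Without Treg with WT Tconv replicate 3, the library with red cell and neutrophil transcripts, 12 members were higher (13.8%, against 5.52%) and the median was 0.13. With both of these libraries left out, 21 members were higher (24.1%, against 9.11%), at a median of 0.07. Leaving out 1 WT library also moved the count of higher members, to 8 without replicate 1 (9.2%, against 5.18% of all genes) and 9 without replicate 2 (10.3%, against 5.8%), and it was 27 without replicate 1 of the HP1a KO group (31%, against 6.51%).

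**Figure D2:**
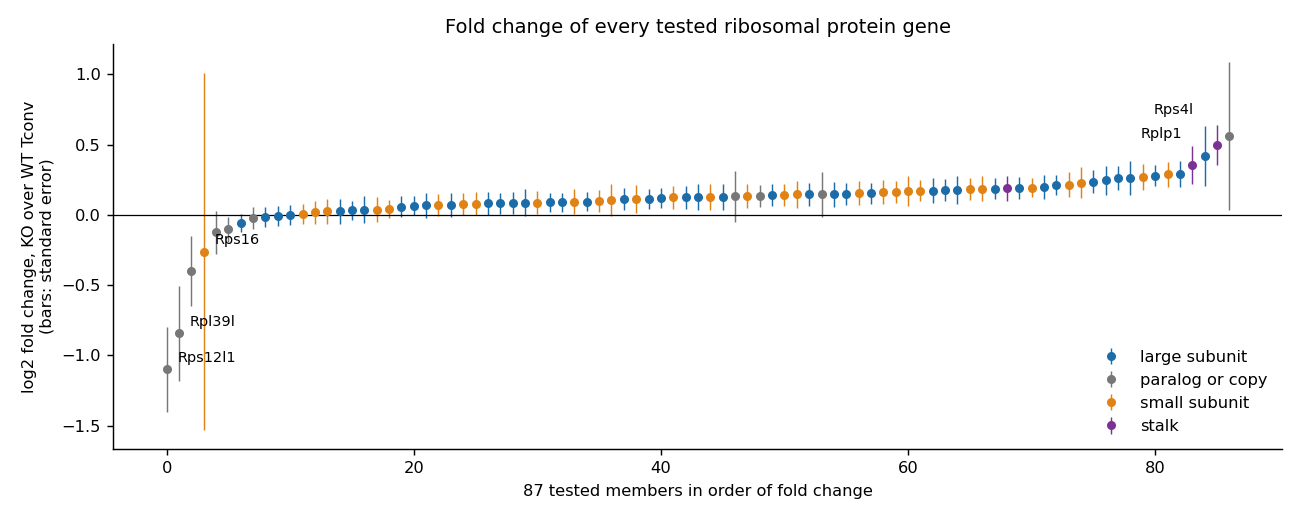
Log2 fold change of each of the 87 tested members, HP1a KO over WT Tconv (vertical axis, bars are standard errors), in order of the fold change and coloured by role. Of the 87 points, 76 lie above 0, and the widest bar belongs to Rps16.

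Among the higher members with the smallest p were large-subunit and stalk genes. Rpl28 (chr7:4795873-4799713, plus strand, GRCm39), a large-subunit protein without a bacterial counterpart, had 307, 301 and 343 CPM with WT Tconv and 373, 386 and 394 CPM with HP1a KO Tconv. Its libraries did not overlap between groups. The log2 fold change was 0.28 ± 0.07 (SE), with an adjusted p of 0.209 by edgeR. Rplp1 (chr9:61820557-61821872, minus strand), the stalk protein P1, had 532, 565 and 637 CPM with WT Tconv and 676, 988 and 782 CPM with HP1a KO Tconv. It had a log2 fold change of 0.50 ± 0.14 (SE), an adjusted p of 0.229 by edgeR and 0.0165 by DESeq2, and a log2 fold change of 0.34 without replicate 2 of the HP1a KO group. The groups did not overlap.

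Rpl29 (chr9:106306586-106311297, plus strand), another large-subunit protein found only in eukaryotes, had 298, 303 and 337 CPM with WT Tconv and 351, 427 and 372 CPM with HP1a KO Tconv. Its log2 fold change was 0.29 ± 0.09 (SE), with an adjusted p of 0.237 by edgeR. The lowest HP1a KO library, replicate 1, lay above the highest WT library, replicate 3.

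Among the other stalk genes, Rplp2, the partner of P1, had 335, 347 and 395 CPM with WT Tconv and 391, 553 and 432 CPM with HP1a KO Tconv, so that the lowest HP1a KO library lay just under the highest WT library. Rplp0, the base of the stalk, had 1233, 1198 and 1348 CPM with WT Tconv and 1343, 1584 and 1380 CPM with HP1a KO Tconv, with the same small overlap. Their log2 fold changes were 0.35 ± 0.13 and 0.19 ± 0.09 (SE), and 0.20 and 0.11 without replicate 2 of the HP1a KO group.

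In the small subunit, Rpsa, which sits beside the mRNA exit site, had 2056, 2031 and 2047 CPM with WT Tconv and 2187, 2664 and 2271 CPM with HP1a KO Tconv. Rps6, the target of S6 kinase, had 785, 789 and 783 CPM with WT Tconv and 834, 969 and 872 CPM with HP1a KO Tconv. In these abundant genes the 3 WT libraries lay close together and the HP1a KO libraries all lay above them, with log2 fold changes of 0.21 for Rpsa and 0.18 for Rps6 (edgeR adjusted p of 0.331 and 0.330). Without replicate 2 of the HP1a KO group the log2 fold changes were 0.125 for Rpsa and 0.119 for Rps6. Rps3, at the mRNA entry, Rps14, Rps19, which is mutated in Diamond-Blackfan anaemia, Rps26, Rps27 and Rps27a, which is made as a fusion with ubiquitin, had log2 fold changes between 0.02 and 0.23, and their groups overlapped. Without replicate 2 of the HP1a KO group they were 0.02 for Rps3, 0.05 for Rps14, 0.04 for Rps19, 0.08 for Rps27 and -0.06 for Rps27a. Rps26 was the only one of these 6 with a higher fold change without replicate 2 of the HP1a KO group, at 0.28 against 0.23.

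In the large subunit, Rpl3, a protein of the peptidyl transferase centre, had 1453, 1443 and 1489 CPM with WT Tconv and 1471, 1480 and 1533 CPM with HP1a KO Tconv, and these overlapped. Rpl5 and Rpl11, which form a complex with 5S rRNA that can bind Mdm2, had log2 fold changes of 0.06 and 0.03, also with overlap, and 0.02 and 0.11 without replicate 2 of the HP1a KO group. Rpl10, added late to the large subunit, had 777, 722 and 781 CPM with WT Tconv and 790, 917 and 823 CPM with HP1a KO Tconv, without overlap, at a log2 fold change of 0.15, or 0.09 without replicate 2 of that group. Rpl13a, Rpl38, known for its role in Hox mRNA translation, Rpl22, needed for the development of alpha-beta T cells, and Rpl39, in the exit tunnel, had log2 fold changes of 0.13, 0.09, -0.00060 and -0.01, and 0.16, 0.06, -0.05 and -0.06 without replicate 2 of the HP1a KO group. Only 5 of the 77 subunit and stalk genes were not above 0: Rpl17, Rpl22, Rpl30, Rpl39 and Rps16, of which Rpl17, Rpl30 and Rps16 were named after their values were seen. For the 4 large-subunit genes among them the log2 fold change lay between -0.06 and -0.00060.

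The level per kilobase of coding sequence differed widely among members. Rpl41, whose coding sequence is 75 bases without the stop codon, had the highest level, at 8810 CPM per coding kilobase, followed by Rps27 at 5508 and Rpl39 at 4497. These short genes are favoured by the scale, since untranslated bases also collect reads and were not counted in the length. The lowest level of a subunit or stalk gene was 545 CPM per coding kilobase. Among the tested protein-coding members the lowest 3 were paralogs, Rps4l at 0.542, Rpl39l at 3.88 and Rpl7l1 at 82.7 CPM per coding kilobase.

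The fold changes of the members followed the GC content of their coding sequence. Over the 76 subunit and stalk genes other than Rps16, the log2 fold change correlated with coding GC content at a Pearson r of 0.63 and a Spearman rho of 0.60 across genes, and at 0.62 and 0.60 without replicate 2 of the HP1a KO group. The genes share libraries and are not independent replicates, so this is a description. The 26 genes of lowest GC content (44.9% to 50.7%) had a median log2 fold change of 0.08, the middle 24 had 0.14 and the 26 of highest GC content (54.6% to 61.6%) had 0.18. These medians were 0.03, 0.09 and 0.12 without replicate 2 of the HP1a KO group. Other tested genes within the same 3 ranges had medians of -0.04, -0.0025 and 0.05, in the same order of GC content but lower in each range. For coding length (log2) the same measure gave a Pearson r of -0.0056. For the mean level (log2 CPM over the 6 libraries) Pearson's r was -0.35 and Spearman's rho -0.29. These were -0.36 and -0.34 without replicate 2 of the HP1a KO group.

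**Figure D3:**
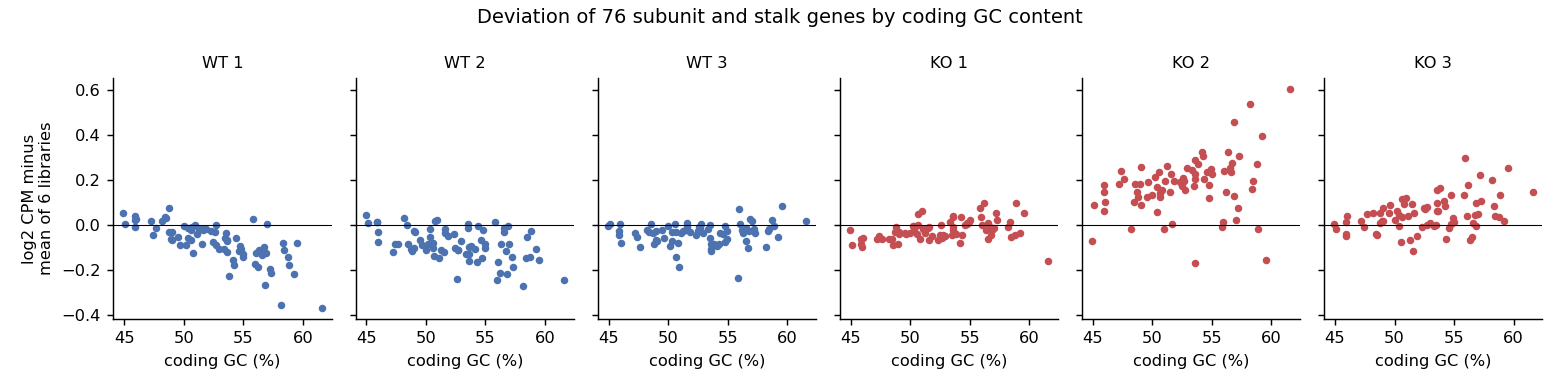
Deviation of the log2 CPM of each of 76 subunit and stalk genes from its mean over the 6 libraries (vertical axis, shared) against the GC content of its coding sequence in percent (horizontal axis), with 1 panel per library, WT Tconv in blue and HP1a KO Tconv in red. The points slope down in WT 1 and up in the HP1a KO libraries, and those of KO 2 lie above 0 for nearly all genes.

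The relation with GC content was also measured in each library. Pearson's r between coding GC content and the deviation of a gene from its mean was -0.74, -0.45 and 0.12 in Treg with WT Tconv and 0.38, 0.32 and 0.41 in Treg with HP1a KO Tconv, each over 76 genes. In the 13199 other tested coding genes r lay between -0.11 and 0.06 and Spearman's rho between -0.28 and 0.14, lowest in WT replicate 1 for both. Over the members Spearman's rho was -0.76, -0.42 and 0.14 with WT Tconv and 0.45, 0.33 and 0.36 with HP1a KO Tconv. When edgeR was given an offset for coding GC content fitted in each library, the members' median log2 fold change was 0.11 and 79 of 87 were above 0 (90.8%, against 48.7% of all genes). Over the 76 genes, Pearson's r between coding GC content and the log2 fold change was 0.33 with this offset. The count of members higher at an unadjusted p under 0.05 was 9 with the offset (10.3%, against 6.26% of all genes), all of them among the 17. It was 8 with the offset and without replicate 2 of the HP1a KO group (9.2%, against 6.89%). In that fit the members' median log2 fold change was 0.06, with a lower quartile of -0.0074.

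A single member was nearly absent from 1 library. Rps16, a small-subunit protein whose tail reaches the tRNA in the P site (chr7:28049982-28052580, plus strand, GRCm39), was named after its values were seen. It had 43152, 53004 and 58034 counts with WT Tconv and 50914, 1549 and 59182 counts with HP1a KO Tconv, so replicate 2 of the HP1a KO group was 28.1-fold lower in CPM of the plain library total than the lowest of the other libraries. Of the 6763 genes above 20 CPM in each of the 5 other libraries, Rps16 was the only one that was more than 8-fold below all of them in that library, and no gene was in any of the 5 other libraries under the same rule. For most other members that library was the highest. The edgeR log2 fold change was -0.26 ± 1.27 (SE), with an adjusted p of 0.945, and 0.31 without that library.

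The processed copies of Rps16 were low in the same library. Rps16-ps2 on chromosome 5, whose sequence matches the coding sequence of Rps16 at every base, had 1427, 1299 and 1626 counts with WT Tconv and 1396, 50 and 1752 counts with HP1a KO Tconv. Gm8623 on chromosome 8 had 43, 72 and 44 counts with WT Tconv and 69, 0 and 78 with HP1a KO Tconv. Rps16 and its 3 near-identical copies together had 16.4 CPM in replicate 2 of the HP1a KO group and between 463 and 698 CPM in the 5 other libraries. Coding bases 94 to 123 (counted from 1 at the start codon) are printed to show how alike the copies are, with the base at which Gm8623 differs in capitals.
Rps16: atcaaggtgaacggAcgtcccctggagatg
Rps16-ps2: atcaaggtgaacggAcgtcccctggagatg
Gm8623: atcaaggtgaacggTcgtcccctggagatg
With sequences this alike the estimated counts can divide reads between gene and copy, so the sum is the firmer value. The files hold no reads, and the source of the low value was not tested.

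**Figure D4:**
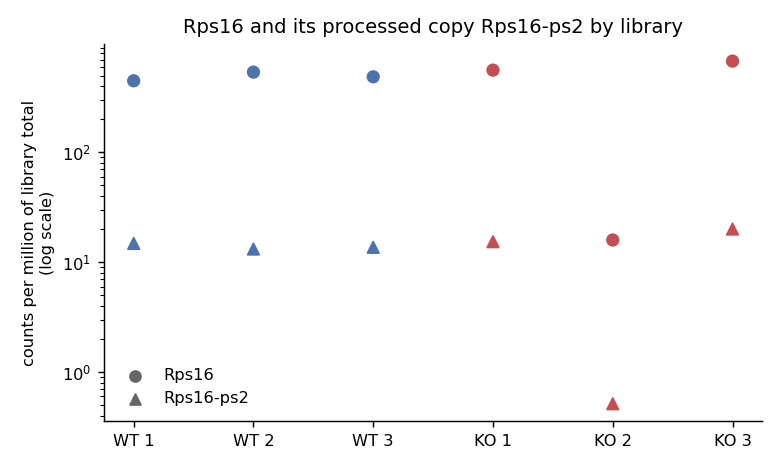
CPM by library total (vertical axis, log scale) for Rps16 (circles) and its processed copy Rps16-ps2 (triangles) in each of the 6 libraries. Both are low in KO 2, where Rps16 has 1549 counts and Rps16-ps2 has 50, and both lie within a narrow range in the 5 other libraries.

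Of the 10 tested paralogs and copies, 4 were above 0 and the median log2 fold change was -0.06, and the 2 members lower at an unadjusted p under 0.05 both came from this group. Rps12l1 (chr7:55663764-55664162, plus strand), annotated as a processed pseudogene, had 150, 95 and 106 counts with WT Tconv and 44, 67 and 40 with HP1a KO Tconv, a log2 fold change of -1.10 ± 0.30 (SE) with an adjusted p of 0.215 by edgeR. Its sequence is identical to Rps12 over the whole coding sequence, and Rps12 had at least 70023 counts in each library, so the value of the copy depends on how reads were divided and is uncertain. Rpl32l, another such copy, had 69, 61 and 79 counts with WT Tconv and 41, 53 and 49 with HP1a KO Tconv.

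Rpl39l (chr16:9949671-9992780, plus strand), the form of Rpl39 known from male germ cells, had 51, 103 and 81 counts with WT Tconv and 43, 46 and 30 with HP1a KO Tconv. As a share of Rpl39l and Rpl39 counts this was 0.0768%, 0.154% and 0.100% with WT Tconv and 0.0732%, 0.0630% and 0.050% with HP1a KO Tconv. The groups did not overlap, but the Wilson 95% intervals of WT replicate 1 (0.0584% to 0.101%) and HP1a KO replicate 1 (0.0543% to 0.0985%) did. The log2 fold change was -0.84 ± 0.33 (SE), with an adjusted p of 0.308 by edgeR. The intervals cover counting error alone, as the reads carry no molecular identifiers.

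**Figure D5:**
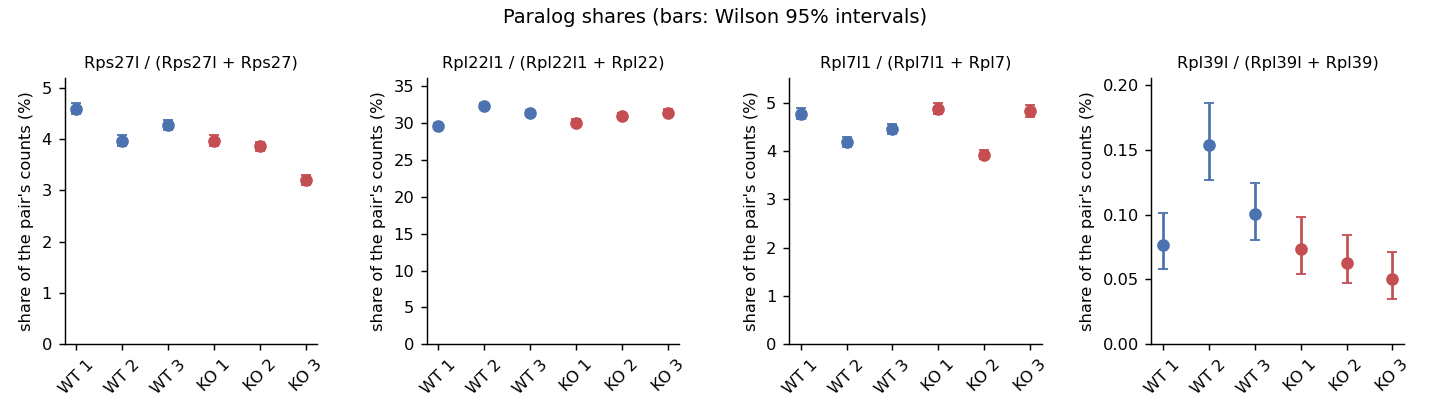
Share of a paralog in the summed counts of the pair in percent (vertical axes, from 0) for Rps27l, Rpl22l1, Rpl7l1 and Rpl39l in each library, with Wilson 95% intervals. Rpl22l1 takes between 29.6% and 32.3% of its pair in every library, and Rpl39l is the one panel in which the groups do not overlap.

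The other paralogs were more abundant and their shares overlapped between groups. Rpl22l1, which can replace Rpl22, took 29.6%, 32.3% and 31.4% of the pair's counts with WT Tconv and 30.02%, 30.9% and 31.4% with HP1a KO Tconv. Rps27l, a target of p53, took 4.59%, 3.97% and 4.28% with WT Tconv and 3.97%, 3.85% and 3.199% with HP1a KO Tconv, where replicate 3 was the lowest of all. Rpl7l1, a factor in large-subunit assembly, took 4.77%, 4.19% and 4.46% with WT Tconv and 4.88%, 3.92% and 4.83% with HP1a KO Tconv. Rps4l had 22, 23 and 66 counts with WT Tconv and 49, 75 and 21 with HP1a KO Tconv, with wide overlap. Rpl3l took at most 0.00788% of the counts of Rpl3l and Rpl3 in any library.

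The subunit genes that fall outside the naming rule were examined as a list of 5. Fau, which encodes Rps30 fused to a ubiquitin-like protein, had 514, 609 and 594 CPM with WT Tconv and 627, 878 and 688 CPM with HP1a KO Tconv, without overlap. Its log2 fold change was 0.35 ± 0.13 (SE), with an adjusted p of 0.291 by edgeR, and 0.20 without replicate 2 of the HP1a KO group. In this list 2 genes were higher and 0 lower at an unadjusted p under 0.05, and 4 of 5 were above 0. Of all genes tested, 6.98% were higher, 7.52% lower and 48.5% above 0.

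The lists of genes that build and supply ribosomes had medians between -0.05 and 0.08. Their counts stand against 6.98% of all genes tested that were higher, 7.52% that were lower and 48.5% that were above 0. Of 80 ribosome biogenesis factors, 3 were higher and 7 lower at an unadjusted p under 0.05, 28 were above 0 and the median log2 fold change was -0.05, or -0.02 without replicate 2 of the HP1a KO group. Riok1, a kinase of late small-subunit assembly, had 171, 188 and 164 CPM with WT Tconv and 137, 138 and 110 CPM with HP1a KO Tconv, without overlap, at a log2 fold change of -0.44 ± 0.10 (SE) and an adjusted p of 0.209 by edgeR and 0.00879 by DESeq2. Rrp9, a part of the U3 particle, had the smallest p among the higher ones, at a log2 fold change of 0.23.

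The RNA polymerase I machinery, which transcribes ribosomal RNA, held 15 tested genes, of which 2 were higher and 1 lower at an unadjusted p under 0.05, with a median of 0.08, or 0.05 without replicate 2 of the HP1a KO group. Taf1c, a subunit of the promoter selectivity factor, had 23.7, 24.3 and 24.1 CPM with WT Tconv and 28.5, 32.9 and 32.5 CPM with HP1a KO Tconv, at a log2 fold change of 0.38 ± 0.08 (SE) and an adjusted p of 0.209 by edgeR and 0.0156 by DESeq2. Polr1f, a polymerase subunit, had a log2 fold change of -0.20. Among 13 chaperones and carriers of ribosomal proteins, 0 were higher and 2 lower, with log2 fold changes of -0.21 for the importin Ipo7 and 0.19 for Grwd1.

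Among 23 other genes with 5′ TOP mRNAs, Fau included, 3 were higher and 1 lower at an unadjusted p under 0.05, and the median log2 fold change was 0.02, or -0.01 without replicate 2 of the HP1a KO group. Nap1l1, a histone chaperone, had the smallest p of the lower ones, at -0.20, or -0.13 without that library. Among 18 tested regulators of these mRNAs and of ribosome supply, 0 were higher and 3 lower, with a median of -0.05. Larp4, which binds poly(A) tails, had 121, 106.6 and 124 CPM with WT Tconv and 93.7, 96.2 and 86.9 CPM with HP1a KO Tconv, at a log2 fold change of -0.34 ± 0.08 (SE) and an adjusted p of 0.209 by edgeR and 0.0223 by DESeq2. Tia1, which binds these mRNAs in stress, had a log2 fold change of 0.15.

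The mitochondrial ribosomal protein genes, which are encoded in the nucleus, had 62 of 78 genes above 0, against 48.5% of all genes tested. Their median log2 fold change was 0.09. At an unadjusted p under 0.05, 5 were higher and 1 lower, against 6.98% and 7.52% of all genes. Without replicate 2 of the HP1a KO group 55 were above 0 (against 49.4% of all genes) and the median was 0.04. They summed to 2027, 1967 and 1971 CPM with WT Tconv and to 2039, 2293 and 2094 CPM with HP1a KO Tconv, so their groups did not overlap and replicate 2 of the HP1a KO group was again the highest. The difference between group means was 154 CPM, and 78.1 CPM without that library. Mrpl52 had a log2 fold change of 0.26 and Mrps30 one of -0.18. The 187 ribosomal protein pseudogenes recognised by name summed to 442, 425 and 458 CPM with WT Tconv and to 425, 474 and 494 CPM with HP1a KO Tconv, which overlapped. Of the 124 pseudogenes tested, 3 were higher and 2 lower at an unadjusted p under 0.05, against 6.98% and 7.52% of all genes. In this set 76 were above 0, against 48.5% of all genes. The median log2 fold change of the pseudogenes was 0.07, and 0.06 without replicate 2 of the HP1a KO group. Rpl31-ps14 had a log2 fold change of 1.38 and Rps12-ps10 one of -0.91, both at under 3 CPM.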

How the data were processed

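Total RNA of sorted Treg was sequenced as paired reads from stranded libraries. Per the study's methods, trimming, STAR alignment to GRCm39 and Salmon quantification were run by the authors in the nf-core pipeline. The deposited values were estimated counts per gene, held as whole numbers and not normalised, and no per-sample column was left unused (0). Estimated counts divide ambiguous reads between near-identical genes by a model.

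Genes kept by filterByExpr (18321) were tested with edgeR 4.0.16 (glmQLFit with robust = TRUE, glmQLFTest, TMM) in R 4.3.3, on all 6 libraries with group as the sole term. CPM of single genes used TMM-scaled totals. Shares, sums, Foxp3 and the 28.1-fold value of Rps16 used plain library totals. The SE is the log2 fold change divided by the root of F. DESeq2 1.42.0, limma-voom (limma 3.58.1), other normalisations and filters, and leaving out each library were alternatives. An offset for coding GC content or coding length, and leaving out 2 libraries, were chosen after seeing the data. The fits were tested on simulated data.

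Coding sequences, positions and copies came from GENCODE vM39 (GRCm39), with blastn 2.17.0. The members, gene lists and tests were chosen with earlier results of these data known. Named members were a fixed set, the 4 with the smallest unadjusted p in each direction, the 3 highest and 3 lowest per coding kilobase, and from each list the gene of smallest p in each direction. Genes that this rule chose but that are withheld are not reported here.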

Additional observations from a re-analysis of the deposited data

How the results depend on the processing

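The members' median log2 fold change was above 0 under every alternative run, and 0 members passed an adjusted p of 0.05 under any of them but DESeq2, which called 1 (Rplp1, log2 fold change 0.49). Over all genes, 526 passed with DESeq2, 38 without the filter, 1 with upper quartile scaling, 15 with 2 libraries left out and 0 to 2 with 1 library left out. Members higher at an unadjusted p under 0.05 numbered 26 with library totals only (29.9%, against 9.53% of all genes). They numbered 9 with the GC content offset (10.3%, against 6.26%) and 8 with that offset and 1 library left out (9.2%, against 6.89%). With 1 library left out they ranged from 8 without WT replicate 1 (9.2%, against 5.18%) to 27 without HP1a KO replicate 1 (31%, against 6.51%). Members lower numbered 1 with DESeq2, with limma-voom and with the GC content offset and 1 library left out, and 1 to 2 with 1 library left out. Of these fits, the share of all genes that were lower is given only for that without HP1a KO replicate 2 (8.92%). The other counts of lower members stand without it. The summed share differed between group means by 4185 to 9352 CPM with 1 library left out and by 5376 CPM with TMM-scaled totals.

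Same-numbered libraries deviated together at correlations of -0.04, 0.18 and 0.12, so the numbers were not taken as pairs. With the replicate block, 10 members were higher and 1 lower at an unadjusted p under 0.05, against 5.03% and 6.32% of all genes tested, and 1 gene of all passed an adjusted p of 0.05.

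Named members whose log2 fold change was near 0 changed sign under some alternatives, and the cause was not tested. Rpl22 was 0.020 with upper quartile scaling, 0.038 with library totals only, 0.00069 without the filter and 0.023 with the GC content offset, and ranged from -0.054 to 0.044 with 1 library left out. Rpl39 was 0.0098 with upper quartile scaling, 0.027 with library totals only, 0.041 with the GC content offset and 0.0046 with the coding length offset, and ranged from -0.060 to 0.043. Rpl22l1 was 0.016 with library totals only, 0.077 with the GC content offset and 0.020 with that offset and 1 library left out, and ranged from -0.081 to 0.045. Rps27a was -0.056 with 2 libraries left out and -0.021 with the GC content offset and 1 library left out, and ranged from -0.064 to 0.090. Rpl11 ranged from -0.050 to 0.11. With the GC content offset and 1 library left out, Rps3 was -0.0085, Rps14 -0.0075 and Rps19 -0.017, and Rpl5 was -0.0046 with 2 libraries left out. The low counts of Rpl3l, Rpl39l, Rps4l and Rps12l1 limit what could be measured for them.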
